A study of Mus musculus with 3 samples.

Results

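Crystallins are the bulk proteins of the eye lens, and the retina transcribes many of their genes as well. The 10 crystallin genes described here (Cryaa, Cryab, Cryba1, Cryba2, Cryba4, Crybb1, Crybb2, Crybb3, Crygc and Crygs) were found on the arrays by matching the accession that the scanner files give for each probe to RefSeq. They were measured by 16 probes, out of 28331 probes and 21366 genes named in this way. The members were listed by name and not by their signal.

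Retina at postnatal day 12 was profiled on 1-colour Agilent arrays, with 1 array labelled Otx2 KI, 1 labelled Crx KO and 1 labelled wild-type. KI and KO are the usual short forms of knock-in and knockout. The labels give no locus for the Otx2 KI, no changed exons for the Crx KO, no strain background and no number of animals behind an array. The series was made to compare the expression profiles of these genotypes. Since each genotype has a single array, no difference could be checked against replicates, and no test across samples and no p-value is given. Differences are described by size, with 2-fold (1 on the log2 scale) as the size of a call.

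The alpha crystallins Cryaa and Cryab encode small heat shock proteins that keep other proteins from aggregating. The beta crystallins, acidic (Cryba genes) and basic (Crybb genes), and the gamma crystallins Crygc and Crygs encode compact structural proteins built from Greek key folds. In the lens their transcription is controlled by Pax6 and by large Maf factors, among others. In the retina crystallin RNA is known from neurons and glia, and alpha B crystallin (Cryab) is also a stress protein of many other tissues.

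The values are scaled signals, that is the background-subtracted Cy3 intensity of a probe after each array was brought to a common 75th percentile. The scaling multiplied the processed signal by 1.02 on the Otx2 KI array, 1.01 on the Crx KO array and 1 on the wild-type array. Of the 59305 spots that are not controls, 63.5% in Otx2 KI, 67.1% in Crx KO and 66.6% in wild-type cleared the scanner's background test (called well above background in the text), and saturation was flagged at 0 spots. All 3 arrays were on 1 slide and read in 1 scan, so position on the slide and genotype cannot be told apart. The brightest Crx probe read 1062 in Otx2 KI, 7177 in Crx KO and 9790 in wild-type, and the brightest Otx2 probe read 63860, 62981 and 40886 in the same order. Where the Crx probe lies relative to either changed allele is not in the labels, so these signals do not check the labels. All 6 bipolar and all 6 ganglion cell markers were well above background on every array. Of 8 photoreceptor markers 7 were, and the cone opsin Opn1sw was well above background in wild-type alone. In whole retina, fewer cells of a type and less RNA per cell cannot be told apart.

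The promoters of these genes are shown first, because several members differed in the same order across the arrays and others did not. They are the 250 bases before the annotated start, taken from RefSeq on GRCm38.p6, and 9 of the 10 members had an entry (none for Cryab). Cryaa (chr17:31677681-31677930, plus strand), Cryba1 (chr11:77725294-77725543, minus strand), Crygc (chr1:65073533-65073782, minus strand) and Crygs (chr16:22811411-22811660, minus strand) are the genes measured on both the Otx2 KI and Crx KO arrays that differed by 2-fold or more between them. Crybb2 (chr5:113070118-113070367, minus strand) was past 2-fold there by a lower bound that leaves out reading error, being dim in Crx KO. Cryba2 (chr1:74893144-74893393, minus strand) read higher in Crx KO than in wild-type. Capitals mark TGCTGA, the recognition core of large Maf factors, and TAATCC, a core bound by Crx and Otx homeodomains, on either strand.
Cryaa: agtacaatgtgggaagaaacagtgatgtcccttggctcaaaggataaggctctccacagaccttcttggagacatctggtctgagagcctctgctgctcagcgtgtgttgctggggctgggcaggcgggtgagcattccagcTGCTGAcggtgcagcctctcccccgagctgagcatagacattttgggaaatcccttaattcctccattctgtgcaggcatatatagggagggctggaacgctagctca
Cryba1: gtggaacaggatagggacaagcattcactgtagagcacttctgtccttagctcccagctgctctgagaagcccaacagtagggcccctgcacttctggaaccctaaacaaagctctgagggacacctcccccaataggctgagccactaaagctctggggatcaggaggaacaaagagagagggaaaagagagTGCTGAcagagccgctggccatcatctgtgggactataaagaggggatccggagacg
Crygc: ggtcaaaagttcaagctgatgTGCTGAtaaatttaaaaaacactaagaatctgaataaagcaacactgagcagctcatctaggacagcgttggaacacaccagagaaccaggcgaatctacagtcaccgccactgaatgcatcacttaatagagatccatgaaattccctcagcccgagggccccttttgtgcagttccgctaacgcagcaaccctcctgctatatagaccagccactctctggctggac
Crygs: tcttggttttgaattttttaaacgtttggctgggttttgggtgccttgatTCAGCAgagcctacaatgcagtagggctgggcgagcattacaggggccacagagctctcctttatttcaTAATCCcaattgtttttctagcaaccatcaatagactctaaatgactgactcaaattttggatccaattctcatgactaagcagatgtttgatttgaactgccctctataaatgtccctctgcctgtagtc
Crybb2: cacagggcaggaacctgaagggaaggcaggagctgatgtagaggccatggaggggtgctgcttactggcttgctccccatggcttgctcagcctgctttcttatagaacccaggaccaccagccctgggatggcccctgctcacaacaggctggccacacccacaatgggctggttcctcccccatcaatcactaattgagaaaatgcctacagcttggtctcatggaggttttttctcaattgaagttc
Cryba2: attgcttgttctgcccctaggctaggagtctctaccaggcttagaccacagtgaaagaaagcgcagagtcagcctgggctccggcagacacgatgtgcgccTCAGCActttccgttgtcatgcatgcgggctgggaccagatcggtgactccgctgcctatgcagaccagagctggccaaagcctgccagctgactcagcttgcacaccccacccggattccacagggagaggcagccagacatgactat
TGCTGA, or TCAGCA on the other strand, was found in 8 of the 9 promoters, against 15.8% of 27025 promoter windows of the same length (1 per gene). It began 108 bases before the start in Cryaa, 57 in Cryba1, 229 in Crygc, 200 in Crygs and 149 in Cryba2. The Cryba4 window held it at 3 places, and the Crybb2 window held none. TAATCC was found in 1 of the 9, Crygs, 131 bases before the start, against 6.38% of promoters. GAANNTTC, a core of heat shock elements, was found in 0 of the 9, against 6.78%. The motifs do not overlap in these windows. A match describes the letters only.

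In the Otx2 KI retina all 10 crystallin genes read above wild-type, by log2 0.18 to 1.66, and 5 of the 10 were higher by 2-fold or more. These were Cryaa, Cryba1, Cryba2, Crygc and Crygs. Of all 15809 genes measured on both arrays, 1.35% were higher by 2-fold or more, and 2.53% were lower by that size, against 0 of the 10 members. Among genes of below-median mean signal 1.54% were higher. With all probes of a gene averaged, 3 members stayed past 2-fold, without Cryaa and Crygc. Measured here means that the gene's brightest probe cleared background on the pair of arrays compared. The median over the 10 members was log2 0.82 (1.76-fold), beside 0.03 over all genes. Beside the 10 of 10 above 0 stand 55.3% of all genes. With normexp background correction, 1 member (Cryaa) stayed past 2-fold, and the median was log2 0.41.

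In the Crx KO retina 7 of the 9 measured crystallin genes read below wild-type and 2 above, and 0 of 9 differed by 2-fold or more. Over all 16048 measured genes 51.5% were below 0 and 48.5% above, 3.43% were lower by 2-fold or more and 1.95% higher. Among genes of below-median signal 4.28% were lower. The median was log2 -0.33 (1.26-fold lower), beside -0.01 over all genes. The members ranged from -0.91 for Crygs to 0.58 for Cryba2. The comparisons of Otx2 KI and of Crx KO with wild-type use the same wild-type array.

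Set directly against each other, the Otx2 KI array read above the Crx KO array for all 9 measured members, by log2 0.25 to 2.42 with a median of 0.91 (1.88-fold). The median over all genes was 0.04, and 59.7% of all genes were above 0. Cryaa, Cryba1, Crygc and Crygs (4 of 9) were higher by 2-fold or more, where 0.677% of 15805 genes were, and 1.12% of those of below-median signal. None of the 9 was lower by that size, where 0.645% of all genes were. Without a filter on dim probes Crybb2 joined them, as 5 of 10. With normexp correction 2 members, Cryaa and Crygs, stayed past 2-fold. Of the 10 members 9 had a mean signal below that of the median measured gene.

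**Figure D1:**
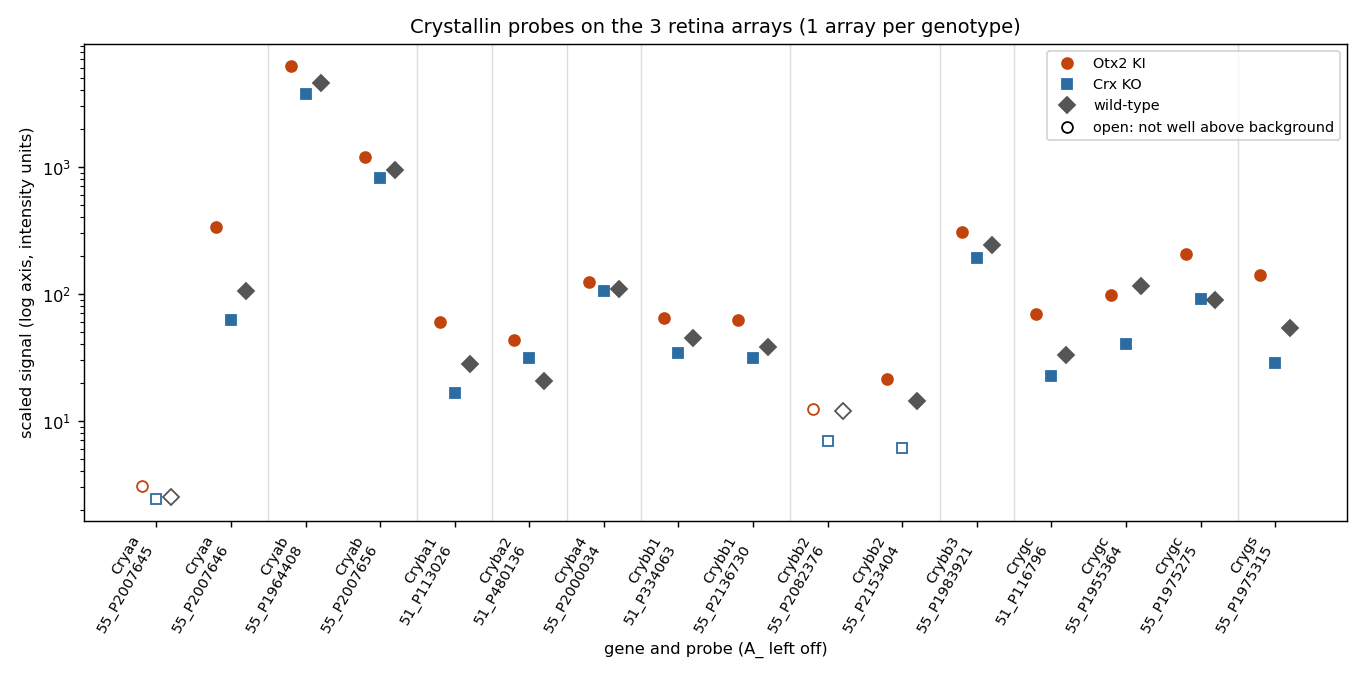
Scaled signal (log axis, intensity units) of the 16 crystallin probes on the Otx2 KI (circles), Crx KO (squares) and wild-type (diamonds) arrays, 1 point per array; open symbols were not well above background. Within a probe the Otx2 KI point is the highest in all but 1 Crygc probe; signals of different probes are not comparable.

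Among the alpha crystallins, Cryaa had the widest range of all members. Its probe A_55_P2007646 read 334 in Otx2 KI, 62.5 in Crx KO and 106 in wild-type. Otx2 KI was thus the highest and Crx KO the lowest, with log2 1.66 (3.15-fold higher) for Otx2 KI against wild-type, -0.76 (1.70-fold lower) for Crx KO against wild-type, and 2.42 (5.35-fold higher) for Otx2 KI against Crx KO. The scanner software's error model gives 0.21 for each of these log2 differences. It covers the reading of a spot, not the spread between mice. The other Cryaa probe, A_55_P2007645, targets another transcript accession and read 3.06, 2.41 and 2.52 in Otx2 KI, Crx KO and wild-type, not well above background on any array. Averaged with that dim probe, Cryaa fell just short of 2-fold in Otx2 KI against wild-type (log2 0.97).

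Cryab kept the same order with much smaller steps. Probe A_55_P1964408 read 6257 in Otx2 KI, 3777 in Crx KO and 4539 in wild-type, and probe A_55_P2007656 read 1197, 810 and 939. The log2 differences were 0.46 and 0.35 for Otx2 KI against wild-type and -0.27 and -0.21 for Crx KO against wild-type, each with a scanner error of 0.20. The Crx KO differences are about as large as that error. Both probes thus put Otx2 KI above Crx KO, by 1.66-fold and 1.48-fold, within 2-fold.

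The acidic beta crystallins differed among themselves. Cryba1, whose probe is printed at 10 spots, read 60.1 in Otx2 KI, 16.5 in Crx KO and 28.0 in wild-type as the mean over spots. The single spots ran from 51.8 to 65.8 (median 61.6, n = 10) in Otx2 KI, from 12.5 to 22.6 (median 15.9, n = 10) in Crx KO and from 22.2 to 36.2 (median 28.3, n = 9 after 1 outlier spot) in wild-type. The Otx2 KI spots did not overlap those of either other array, while the brightest Crx KO spot lay just above the dimmest wild-type spot. These spots share 1 RNA preparation per genotype, so they show the reading error and not the spread between mice. Otx2 KI was 2.15-fold above wild-type (log2 1.10) and Crx KO 1.70-fold below it (log2 -0.76).

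Cryba2 broke the order. It read 43.6 in Otx2 KI, 31.0 in Crx KO and 20.8 in wild-type, so that both mutant arrays were above wild-type, by log2 1.07 (2.10-fold) and 0.58. The scanner errors of these differences were 0.27 and 0.28. With normexp correction (offset 50) the differences fell to log2 0.39 and 0.08. Cryba4 read 125 in Otx2 KI, 105 in Crx KO and 110 in wild-type, the narrowest range of the members measured on all arrays. Its log2 differences from wild-type, 0.18 and -0.07, were smaller than their scanner error of 0.21.

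The basic beta crystallins followed the order of Cryaa, and Crybb1 and Crybb3 were within 2-fold of wild-type. Crybb1 read 64.8 in Otx2 KI, 34.5 in Crx KO and 45.1 in wild-type on probe A_51_P334063, and 62.5, 31.4 and 38.0 on probe A_55_P2136730. The Crybb1 probes put Otx2 KI above Crx KO by log2 0.91 and 0.99, just short of 2-fold. Crybb3 read 309 in Otx2 KI, 192 in Crx KO and 243 in wild-type (log2 0.35 and -0.33 against wild-type). Crybb2 was the 1 member not well above background on every array. Its probe A_55_P2153404 read 21.3 in Otx2 KI and 14.5 in wild-type, and was not well above background in Crx KO. By the signals as read, Crybb2 was at least 1.45-fold lower in Crx KO than in wild-type. The Otx2 KI array exceeded the Crx KO array at least 2.14-fold. These bounds leave out the reading error, and the scanner errors of the 2 log2 differences were 0.66 and 0.64. Its other probe was not well above background on any array.

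Neighbouring genes did not always differ alike. In the order of protein-coding genes on chromosome 5, Cryba4 lies next to Crybb1, and Crybb2 next to Crybb3. For Otx2 KI against Crx KO, Cryba4 had a log2 difference of 0.25 and Crybb1 one of 0.91. Cryab lies next to Hspb2, which encodes another small heat shock protein. Hspb2 read 138 in Otx2 KI, 147 in Crx KO and 90.7 in wild-type, above wild-type on both mutant arrays (log2 0.60 and 0.69), where Cryab was below wild-type in Crx KO.

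The gamma crystallins were the other genes with large steps. Crygs, the gamma crystallin found across vertebrate lenses, read 140 in Otx2 KI, 28.7 in Crx KO and 53.8 in wild-type. That is log2 1.38 (2.60-fold higher), -0.91 (1.87-fold lower) and, for Otx2 KI against Crx KO, 2.28 (4.86-fold higher), with scanner errors of 0.22, 0.25 and 0.24. Crygs thus kept the order of Cryaa.

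The 3 probes of Crygc disagreed on where wild-type stands. Probe A_55_P1975275, the brightest by mean, read 207 in Otx2 KI, 91.6 in Crx KO and 88.9 in wild-type, with Crx KO and wild-type within the scanner error of each other. Probe A_51_P116796 read 69.1, 22.7 and 32.7 in Otx2 KI, Crx KO and wild-type, which is the order of Cryaa. Probe A_55_P1955364 read 97.9, 40.4 and 116, with wild-type highest and Crx KO 2.87-fold below it (log2 -1.52). All 3 probes put Otx2 KI above Crx KO, by log2 1.61, 1.28 and 1.18 on A_51_P116796, A_55_P1955364 and A_55_P1975275. Probe A_55_P1975275 is listed under another RefSeq transcript than the other Crygc probes. Crygc also belongs to a cluster of closely related genes on chromosome 1, and probes of this cluster may share targets. The source of the disagreement was not tested. With all probes averaged, Crygc was within 2-fold of wild-type in Otx2 KI (log2 0.69) and lay below it in Crx KO (log2 -0.67). The sequences of the probes are not used here, so each Crygc value is uncertain in its gene.

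**Figure D2:**
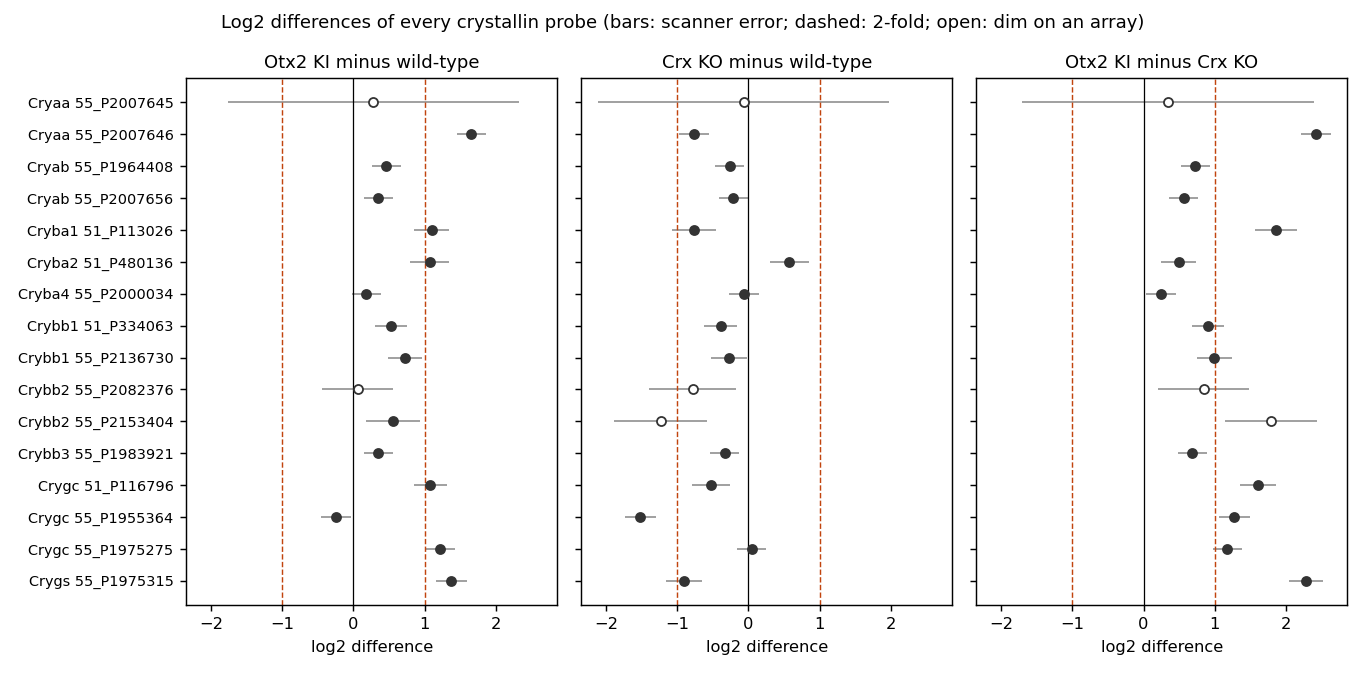
Log2 difference of each of the 16 crystallin probes for Otx2 KI minus wild-type, Crx KO minus wild-type and Otx2 KI minus Crx KO; bars are the scanner error, dashed lines mark 2-fold, and open points had at least 1 array not well above background. In Otx2 KI minus Crx KO all 13 measured probes lie above 0, and 6 of them beyond 2-fold. Counted by gene over all genes, 59.7% were above 0 and 0.677% higher by 2-fold or more.

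Counted by probe, 14 were measured in Otx2 KI and wild-type, of which 13 were above 0, 6 were higher by 2-fold or more and 0 were lower by that size. In Crx KO against wild-type 13 were measured, of which 11 were below 0 and 1, the Crygc probe A_55_P1955364, was lower by 2-fold or more. Probes of 1 gene are not separate measurements, and shares over all probes were not counted. Over all genes, 55.3% were above 0 in Otx2 KI against wild-type, 1.35% higher by 2-fold or more and 2.53% lower. In Crx KO against wild-type, 51.5% of all genes were below 0 and 3.43% lower by 2-fold or more. Of the 9 members measured on all arrays, 7 read highest in Otx2 KI and lowest in Crx KO with wild-type between. That order was found in 15.3% of all 15742 genes measured on the 3 arrays. Among the 7, Cryba4 kept it only within its scanner error of 0.21 (log2 0.18 and -0.07 from wild-type). The Crx KO step of Cryab (log2 -0.27) was about as large as its error of 0.20. The other 2, Cryba2 and Crygc, had Crx KO above wild-type on their brightest probes. For Crygc this was log2 0.04, within the scanner error, and its other probes read below wild-type.

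**Figure D3:**
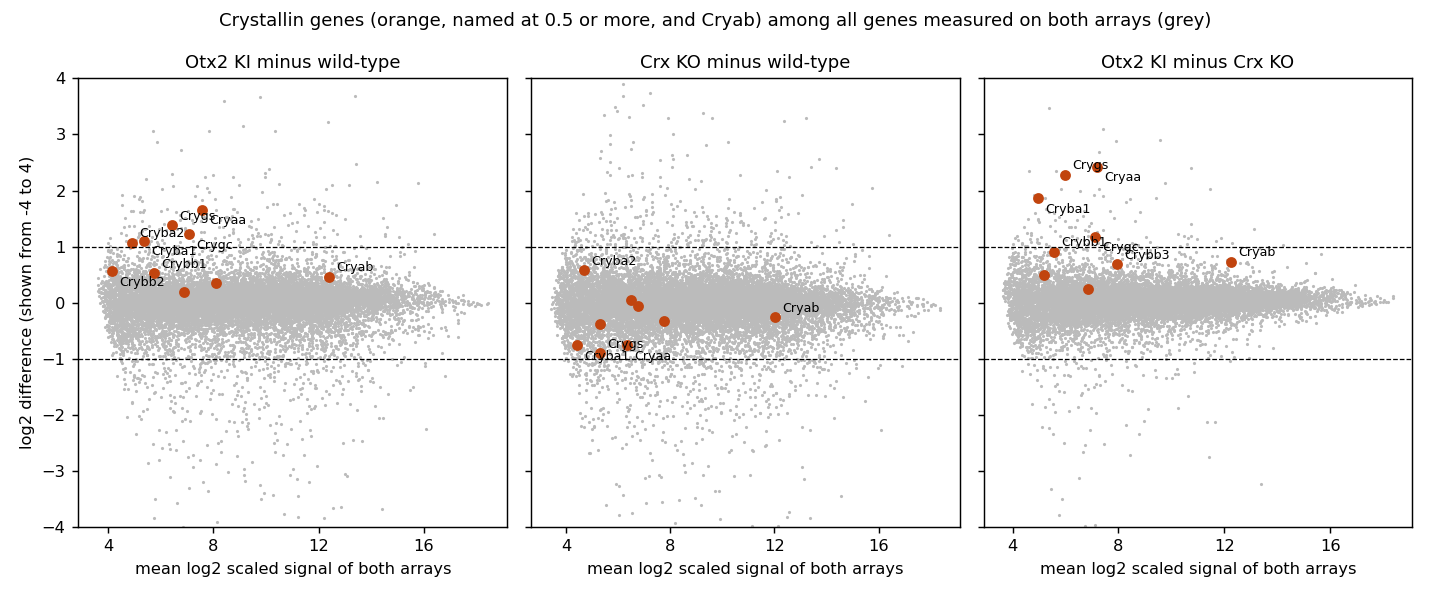
Log2 difference (from -4 to 4, larger ones not shown) against mean log2 scaled signal of both arrays for all genes measured on both arrays (grey) and the crystallin genes (orange), in 3 comparisons; dashed lines mark 2-fold. Cryaa, Cryba1, Crygc and Crygs lie above the upper line for Otx2 KI minus Crx KO, where 0.677% of all genes do, and the crystallins other than Cryab sit at low signal.

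Other crystallin genes and crystallin-related genes were read beside them. Of 13 such genes 10 were measured, with a median of log2 0.37 for Otx2 KI against wild-type, -0.22 for Crx KO against wild-type and 0.27 for Otx2 KI against Crx KO. In the last comparison 4 of 10 were higher by 2-fold or more, where 0.677% of all genes were. These 4 are all gamma genes of the chromosome 1 cluster: Cryga, Crygd, Cryge and Crygf. Against wild-type, 2 of 10 were higher by that size in Otx2 KI (Crybg3 and Cryge) and 1 in Crx KO (Crybg3). Over all genes 1.35% were in Otx2 KI and 1.95% in Crx KO. Cryge read 114 in Otx2 KI, 27.9 in Crx KO and 43.3 in wild-type, and Crygd read 113, 44.4 and 73.1. Cryga read 130, 58.2 and 102 in the same order. These genes are close relatives of Crygc, so they are not separate measurements where probes share targets.

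Crystallin-related genes outside the lens families had other patterns. Crybg3, a large protein with beta-gamma crystallin repeats, read 5023 in Otx2 KI, 3781 in Crx KO and 1600 in wild-type, past 2-fold above wild-type on both mutant arrays (log2 1.65 and 1.24). Crym, mu crystallin, which binds thyroid hormone, read 32812, 30335 and 28713, within the scanner error. Crybg2 was not well above background on any array, and neither was Crygn, which does belong to the gamma family.

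Non-crystallin genes of lens fibre cells were centred near wild-type in Otx2 KI. Of 9 named genes 7 were measured, with a median of log2 -0.10 for Otx2 KI against wild-type, 3 above 0 and 4 below. None of the 7 was past 2-fold, where 1.35% of all genes were higher and 2.53% lower by that size. Mip, the major intrinsic protein of fibre membranes, read 3.09 in Otx2 KI, 6.65 in Crx KO and 5.91 in wild-type. Neither Mip nor Lim2, another fibre membrane protein, was well above background on any array. Bfsp2, a beaded filament protein, read 402, 207 and 332, in the order of Cryaa but within 2-fold.

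Lgsn, which encodes the lens protein lengsin, read 144 in Otx2 KI, 52.1 in Crx KO and 214 in wild-type. With a log2 difference of -2.04, Lgsn was the 1 fibre gene of 7 past 2-fold between Crx KO and wild-type. Over all genes 3.43% were lower by that size. For Otx2 KI against Crx KO the fibre median was log2 0.05, with 4 of 7 above 0 and 3 below. There Lgsn was the 1 of 7 higher by 2-fold or more (log2 1.47), where 0.677% of all genes were. The summed signal of the 9 fibre genes was 844 in Otx2 KI, 555 in Crx KO and 840.2 in wild-type. In it, Bfsp2 was higher and Lgsn lower in Otx2 KI than in wild-type by similar amounts. The part of lens cells in the crystallin signals was not tested.

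Markers of other tissues around the retina also differed between the arrays. Of 12 pigment epithelium and melanocyte genes 10 were well above background on all arrays. Their summed signal was 12885 in Otx2 KI, 8537 in Crx KO and 25026 in wild-type, so both mutant arrays were below wild-type, whereas the crystallins were above it in Otx2 KI. Of 10 cornea and ciliary body genes 8 were measured on all arrays, with summed signals of 3766, 2534 and 2615 in Otx2 KI, Crx KO and wild-type. Kera and Lum, defining genes of corneal stroma, were not well above background on any array. Optc, which encodes opticin of the ciliary epithelium and vitreous, read 1878 in Otx2 KI, 808 in Crx KO and 576 in wild-type (3.26-fold higher in Otx2 KI than in wild-type). Without Optc the summed signals were 1888, 1726 and 2039. Dcn, which encodes the matrix proteoglycan decorin, read 35.2, 107 and 30.6, highest in Crx KO. Skeletal muscle genes summed to 783, 835 and 468 in the same order, but 3 of the 8 were well above background on all arrays. Tnnc2, a fast troponin, was the 1 muscle gene past 2-fold above wild-type, on both mutant arrays, and the medians were log2 0.05 in Otx2 KI and 0.09 in Crx KO. The part of these tissues in the crystallin signals was not tested.

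Regulators known to act on crystallin genes were mostly level. Of 13 genes 12 were measured in Otx2 KI and wild-type, with a median of log2 0.03, and 10 were within 2-fold. Maf, the large Maf factor that drives crystallin genes in lens fibres, read 2198 in Otx2 KI, 3208 in Crx KO and 441 in wild-type. Both mutant arrays were thus above wild-type, by 4.98-fold in Otx2 KI (log2 2.32) and log2 2.86 in Crx KO. Most crystallins read lowest in Crx KO, though 0 of the 9 measured members were past 2-fold from wild-type there. The part of Maf in the crystallin signals was not tested. Tdrd7, an RNA granule protein needed in the lens, read 9527, 11894 and 34282, lower on both mutant arrays (log2 -1.85 and -1.53). Pax6 read 2116, 2145 and 2020, within the scanner error, and the lens regulators Prox1 and Sox2 were within 2-fold.

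Small heat shock genes, the relatives of the alpha crystallins, had a median of log2 0.00 in Otx2 KI and -0.12 in Crx KO against wild-type over 6 measured of 7. Past 2-fold below wild-type were Hspb6 in Otx2 KI (log2 -1.17) and Hspb3 in Crx KO (log2 -1.28), and 0 of 6 were higher by 2-fold in either. Among 9 heat shock and stress genes, Hspa1a, an inducible chaperone, read 133 in Otx2 KI, 215 in Crx KO and 731 in wild-type, and Atf3 read 60.9, 64.3 and 129. Both were lower by 2-fold or more on both mutant arrays. Muller glia, a retinal source of alpha crystallins, had 10 of 10 marker genes within 2-fold in each comparison, with summed signals of 196703 in Otx2 KI, 202587 in Crx KO and 161984 in wild-type. Reactive glia genes had medians of log2 -0.02 in Otx2 KI and 0.01 in Crx KO, with Serpina3n, a marker of reactive astrocytes, at 13.9 in Otx2 KI, 140.3 in Crx KO and 13.9 in wild-type. Lcn2, another marker of reactive glia, read 65.6, 72.6 and 283, lower by 2-fold or more on both mutant arrays.

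Neurons of the retina differed by class. Photoreceptor genes had a median of log2 -3.45 in Otx2 KI, with 6 of 7 lower by 2-fold or more, and of -2.54 in Crx KO, with 7 of 7 lower. They were lower on both mutant arrays. Most crystallins read above wild-type in Otx2 KI and below it in Crx KO. In Crx KO their median was log2 -0.33 and 0 of 9 measured members were past 2-fold. Of the bipolar, amacrine and ganglion cell genes measured, 0 were past 2-fold in any comparison. Few of all genes were, at most 1.95% higher and 3.43% lower in a comparison. The part of changed cell make-up in the crystallin signals was not tested.

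**Figure D4:**
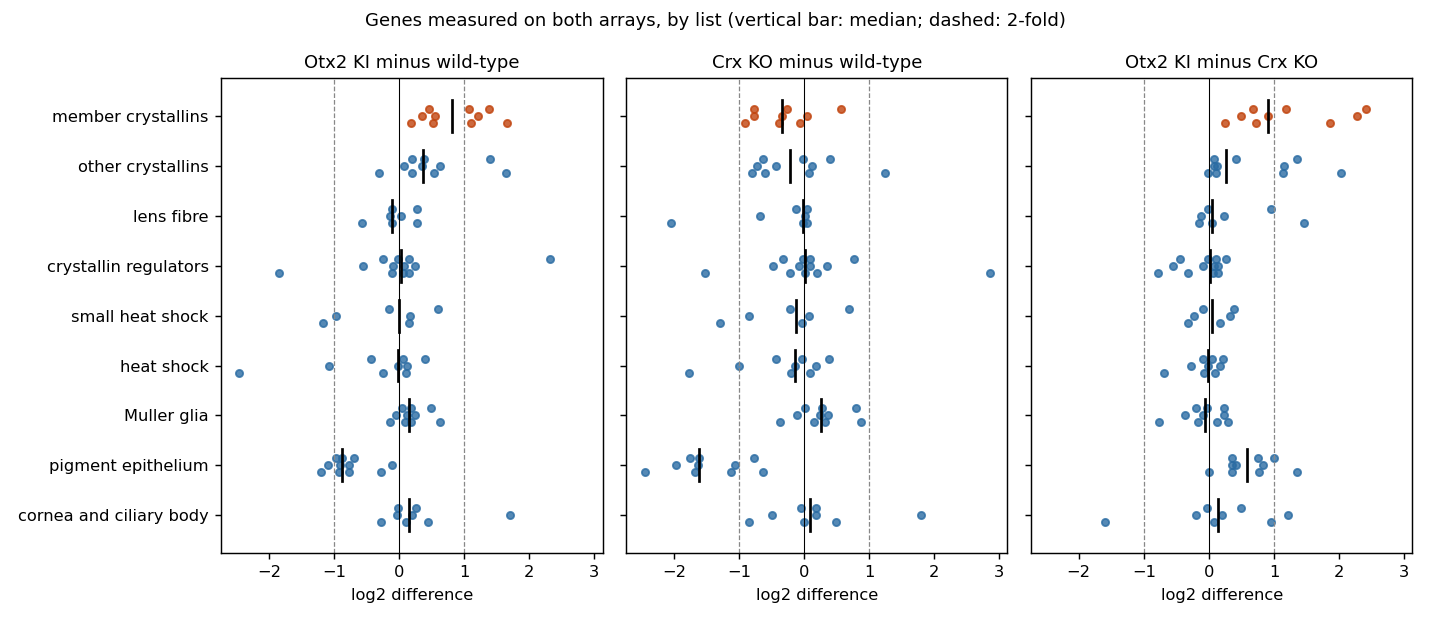
Log2 differences of genes measured on both arrays for the crystallin members (orange) and 8 lists of other genes (blue), 1 point per gene; vertical bars are medians and dashed lines mark 2-fold. The member median is 0.82 in Otx2 KI minus wild-type. The 7 measured lens fibre genes have a median of -0.10, with 3 above 0 and 4 below.

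The genes whose pattern was most like that of Cryaa were found by the distance between pairs of log2 differences from wild-type, over 15733 genes outside the members and 3 arrays. The 5 nearest were Cryge (distance 0.29), the angiotensin receptor Agtr1a (0.49), the phosphatase inhibitor Ppp1r14a (0.68), the matrix gene Fbln1 (0.87) and Fndc7 (0.92). Among the members Crygs (0.31) and Cryba1 (0.55) lay as near, with 1 and 2 non-members nearer. Cryab lay at 1.29, with 67 genes nearer. Ppp1r14a read 1833 in Otx2 KI, 418 in Crx KO and 468 in wild-type. Best2, a channel of the ciliary epithelium that was named after its value was seen, was next in distance (0.95) and read 174, 75.7 and 69.2. In Ppp1r14a and Best2 the Crx KO and wild-type signals lay closer together than in Cryaa.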

How the data were processed

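Total RNA of dissected retinas was purified with QIAzol, then amplified and labelled with Cy3, per the labels' protocols. The deposited scanner files hold spot intensity values written by Agilent Feature Extraction 12.0.3.1, per the file headers, which refer the array design to mm9. The processed signal, background-subtracted by that software, was used. The authors' deposited value table, also an intensity table, was the processed signal times 1 constant per array (2.54 for Otx2 KI, 2.61 for Crx KO and 2.49 for wild-type), with column medians of 125.7, 135.8 and 129.8. The origin of these constants is unknown here.

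Control spots and outlier spots (132, 126 and 136 on the Otx2 KI, Crx KO and wild-type arrays) were left out, spots of a probe were averaged, and log2 signals were reduced by the 75th percentile of each array (564, 570 and 574). The arrays hold 55681 probes. Accessions were matched without versions to GRCm38.p6 genes, used only for names, gene order and promoters. A gene was represented by its brightest probe. Where 1 array was dim, an at-least fold was taken against the higher of the probe's own signal and the lowest scaled signal well above background there (12.4, 9.94 and 10.2). The number of arrays limits the precision. The members and lists were chosen with earlier results of these data known, and 1 gene of the lens fibre list is not reported here. Dnase2b of that list and Hspa1b of the heat shock list matched no probe. The text names every member, and of 14 lists some of the genes past 2-fold or with the largest differences, with 5 genes nearest in pattern to the member of widest range. Python 3.11.15, numpy 2.4.6, pandas 2.3.3 and limma 3.58.1 were used, and the steps were tested on simulated data.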

Additional observations from a re-analysis of the deposited data

How the results depend on the processing

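With 1 array per genotype no array could be left out. No paired analysis was possible because each genotype has 1 array, and a slide block could not be fitted because all arrays share 1 slide. Normexp was run on the median spot signal, as the files hold no mean signal. With normexp (offset 50) 1 member (Cryaa) was past 2-fold above wild-type in Otx2 KI, with a median of log2 0.41, and 2 (Cryaa and Crygs) were past it between Otx2 KI and Crx KO, with a median of 0.63. With an offset of 10, an alternative chosen after seeing the data, 3 members were past 2-fold above wild-type in Otx2 KI, with a median of log2 0.56. Between Otx2 KI and Crx KO 4 members were past 2-fold, with a median of 0.70. The offset is added to every signal, which by construction shrinks folds of dim probes. Without a filter on dim probes 1 member, Crybb2, was lower in Crx KO than in wild-type by 2-fold or more, and it raised the count between Otx2 KI and Crx KO to 5. With all probes of a gene averaged, 3 members (Cryba1, Cryba2 and Crygs) were past 2-fold above wild-type in Otx2 KI, and Crygc turned from log2 0.04 to -0.67 in Crx KO. At 1.5-fold, 3 members were lower in Crx KO than in wild-type and 7 were above Crx KO in Otx2 KI. Quantile normalization, the median as the scale and the authors' table gave the same counts of members past 2-fold in all 3 comparisons. For the authors' table this was bound to be so, as it is the processed signal times 1 constant per array. Scaling by the median shifts every difference of a comparison by the same amount, so neither is an independent check. The median as the scale put the median of all genes at 0.10 for Otx2 KI against Crx KO. Of 196 single gene values 185 kept their direction and their side of 2-fold, 10 fell short of 2-fold and 1 (Crygc) changed sign. Many of the 185 were bound to stay, so their number does not measure robustness. Removing the filter leaves measured genes unchanged, averaging leaves genes with 1 probe unchanged, and the authors' table is a rescaled processed signal. Those that fell short did so with normexp or with all probes averaged. Over all genes, the counts higher and lower by 2-fold in Otx2 KI against wild-type were 213 and 400, and 130 and 281 with normexp (offset 50), 498 and 906 without the filter, and 578 and 1004 at 1.5-fold. For Crx KO against wild-type they were 313 and 550, and 182 and 328, 789 and 1075, and 805 and 1323 under the same settings. For Otx2 KI against Crx KO they were 107 and 102, and 35 and 50 with normexp at offset 50, 60 and 69 at offset 10, 394 and 581 without the filter, and 385 and 365 at 1.5-fold. The dim signal of most members limits these counts.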
